A study of Homo sapiens with 6 samples.

Results

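The genes described here encode the integrins and the laminins: every gene whose symbol begins with ITGA, with ITGB and a digit, or with LAM and a chain letter and number. The tables held 38 such genes among 27968, made up of 18 integrin alpha chains, 8 integrin beta chains, 5 laminin alpha chains, 4 laminin beta chains and 3 laminin gamma chains. The rule uses names only. They were compared between A549 and H23, established human cell lines kept as models of lung adenocarcinoma. The sample titles mark every library as CTL and name no treatment or alteration of either line. Each was grown as 3 independent cultures to near confluence, H23 in RPMI medium and A549 in DMEM with the same serum, so line and medium cannot be told apart. Total RNA was depleted of ribosomal RNA and sequenced, which reads out transcripts and not protein at the cell surface.

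Integrins are receptors made of 1 alpha and 1 beta chain that span the cell membrane, bind matrix proteins outside and link to the actin or keratin skeleton inside. Laminins are cross-shaped trimers of an alpha, a beta and a gamma chain that form the sheet-like core of the basement membrane beneath epithelia. In lung epithelium the pair alpha3 beta1 and the pair alpha6 beta4 hold cells on laminin. Laminin-332, which holds the LAMA3 and LAMB3 chains, anchors hemidesmosomes, and laminin-511, built from LAMA5, LAMB1 and LAMC1, is widespread in adult epithelium.

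A549 and H23 differed in the levels of many of these chains, most of which were present in both. In A549 the laminin chains LAMA3 and LAMB3 and the integrin chains ITGAV, ITGB5, ITGB6, ITGB1 and ITGA3 were higher. For LAMA3 this lay mostly in its long transcript, while its main short transcript was lower in A549. In H23 the laminin alpha chains LAMA1 and LAMA2, the gamma chain LAMC3 and the integrin chain ITGA5 were higher. Of the 38 genes, 33 had enough counts for a test. Of these, 20 were higher in A549, 7 were higher in H23 and 6 did not pass. The test was edgeR's quasi-likelihood F test, and p-values were adjusted by Benjamini-Hochberg over all 15426 tested genes with a threshold of 0.05. Passing the test was common in this comparison: 77.2% of all tested genes passed, 37.6% with the higher level in A549 and 39.6% with it in H23. The share of called members, 81.8%, was therefore near that of all genes. The median log2 fold, A549 over H23, was 1.14 over the 33 members and -0.03 over all tested genes. The members are long genes, with a median transcript length of 5048 bases against 2924 over all tested genes, and their median log2 fold was 0.93 with the trend with length removed. At least 2-fold differences were called for 24 members, against 50.1% of all tested genes. The libraries of the lines did not overlap for 28 members, against 82.1% of all tested genes.

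The libraries held 29395795 to 42421642 estimated counts in H23 and 23399562 to 25348083 in A549, so that 3 counts in a library were worth 0.0706 to 0.10 CPM and 0.12 to 0.129 CPM (counts scaled by library size and TMM). H23 replicate 1 stood apart: its members deviated from the line's mean by more than 0.5 on the log2 scale for 10 of 33 genes, against 3 in replicate 2, 7 in replicate 3 and 0 in each A549 library. Values without it are given where they moved a result. Genes of protein-coding transcripts took 95.4 to 96.7% of TPM (abundance scaled for length and depth) in H23 and 58.2 to 61.1% in A549, which lowers deposited TPM of all mRNAs in A549. The median log2 fold of all tested genes was -0.41 on log2(TPM + 1) and -0.54 on log2(TPM + 0.1), and 17 members were then higher in A549 and 10 higher in H23. The members' median was 0.25 and 0.59 on those scales. Of all calls, 48.7% were higher in A549 on counts and 31.7% on log2(TPM + 1).

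Keratins KRT8 and KRT18, defining genes of simple epithelium, were high in both lines, and the 6 epithelial markers summed to 3635 to 3780 CPM across H23 and 7950 to 8160 CPM across A549. KRT7 made most of that gap, at a mean of 1.18 CPM in H23 and 3562 CPM in A549, while EPCAM (6.81 and 3.61 CPM) and CDH1 (38.7 and 14.4 CPM) had higher means in H23. Lung identity genes were nearly absent: NKX2-1 was at a mean of 2.95 CPM in H23 and 0 in A549, and SFTPC was at 0 in H23 and 0.0287 CPM in A549. Of the fibroblast markers COL1A1 led, and DCN was at 0 in both. Endothelial markers reached 1.11 CPM at most, with PECAM1, VWF and KDR at 0 in A549. Leukocyte markers summed to 2.3 to 4.68 CPM across H23 and 3.67 to 4.1 CPM across A549. CD14 led in both lines, and CD3E and MS4A1 were at 0 in both. In bulk RNA, fewer cells that carry a transcript and less of it per cell cannot be told apart.

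**Figure D1:**
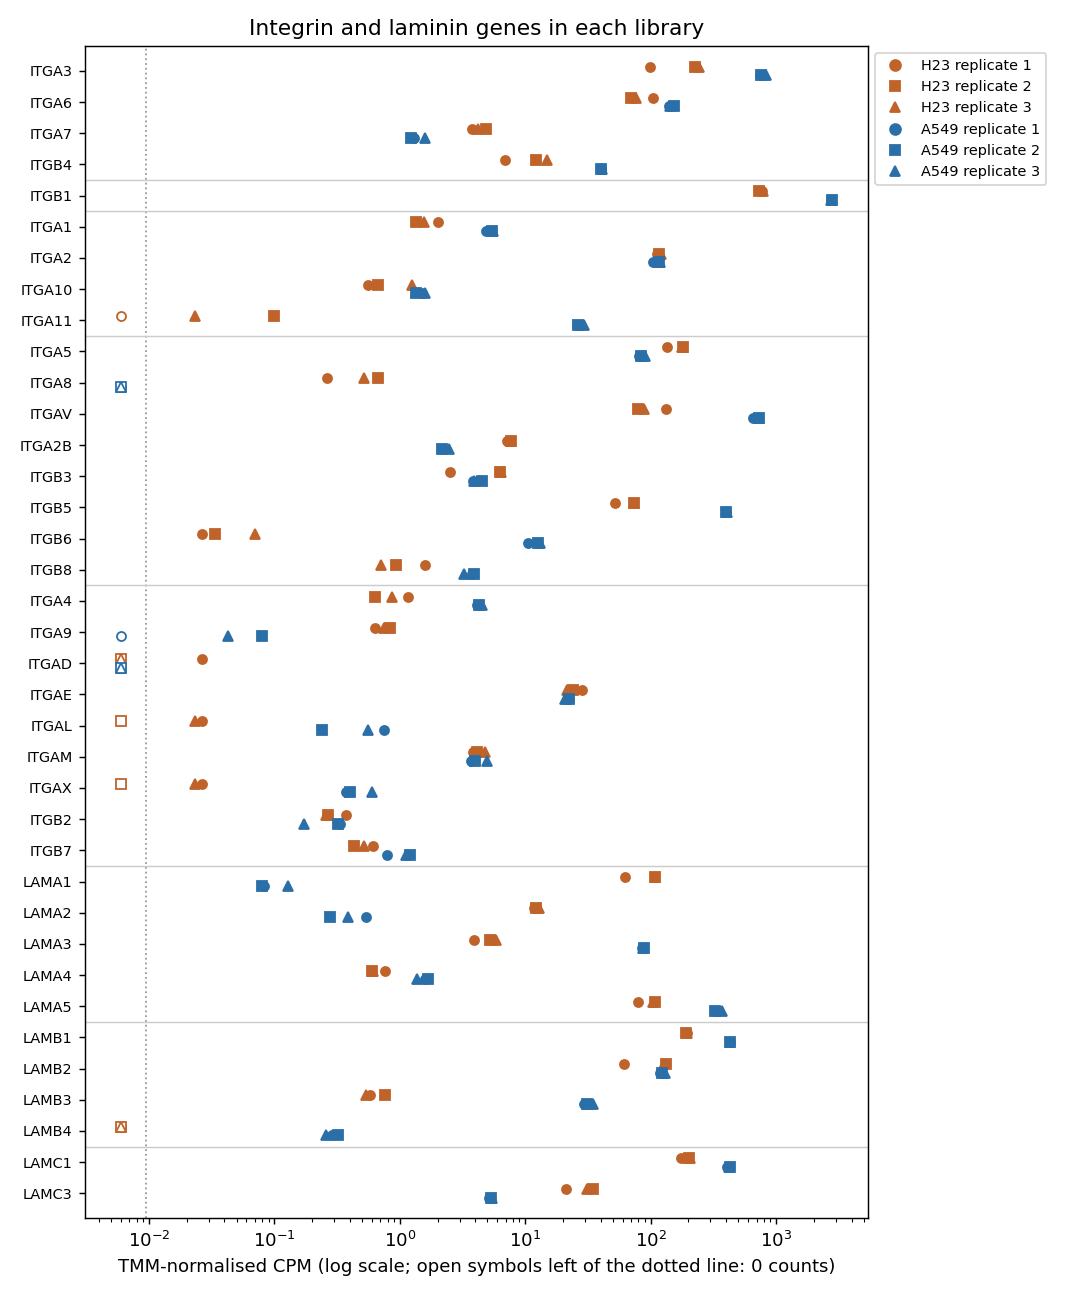
Levels of integrin and laminin genes in every library, as TMM-normalised CPM on a log scale, ordered by role. Points are single libraries of H23 and A549, and open symbols left of the dotted line are 0 counts. LAMA1 lies near 100 CPM in H23 and near 0.1 CPM in A549, and LAMB3 lies the other way.

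The start regions of laminin-332 genes are shown because LAMA3 and LAMB3 changed in transcript usage. The LAMA3 rise lay mostly in the long form, whose start is not shown. The start regions of ITGB6 and LAMC1 are shown as contrasts in base composition. Each is the 250 bases before an annotated start, 5′ to 3′ on the gene's strand, from RefSeq on GRCh38.p14. Capitals mark TGANTCA, the letters of an AP-1 site. The LAMA3 window, chr18:23872770-23873019 on the plus strand, precedes the short-form start of NM_001127718, which had 0 counts in both lines. The GENCODE start of the short transcript NM_000227 lies 180 bases upstream, inside this window, and both TGANTCA matches follow it. The first LAMB3 window, chr1:209651375-209651624 on the minus strand, precedes the start of the transcript NM_001017402, and the other, chr1:209652426-209652675, that of NM_000228. In A549 NM_000228 was the leading LAMB3 transcript. The ITGB6 window is chr2:160200273-160200522 on the minus strand, and the LAMC1 window is chr1:183023170-183023419 on the plus strand. Of the transcripts matched to the ITGB6 window by their start, NM_001282355 and NM_001282389 had 33 and 36 counts in A549. The starts of the ITGB6 transcripts NM_000888 and NM_001282353, with 489 and 319 counts, were not located. Whether they begin at this window is therefore not known.
LAMA3 short form: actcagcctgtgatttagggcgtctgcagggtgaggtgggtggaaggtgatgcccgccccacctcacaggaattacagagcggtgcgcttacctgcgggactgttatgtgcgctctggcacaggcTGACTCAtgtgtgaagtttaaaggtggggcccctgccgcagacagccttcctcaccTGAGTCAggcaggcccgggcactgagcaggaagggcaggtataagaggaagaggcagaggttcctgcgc
LAMB3 NM_001017402: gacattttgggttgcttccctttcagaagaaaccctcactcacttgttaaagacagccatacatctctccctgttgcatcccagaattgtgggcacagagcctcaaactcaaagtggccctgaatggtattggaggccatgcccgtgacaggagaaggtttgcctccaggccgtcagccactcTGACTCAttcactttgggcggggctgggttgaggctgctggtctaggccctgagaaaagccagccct
LAMB3 NM_000228: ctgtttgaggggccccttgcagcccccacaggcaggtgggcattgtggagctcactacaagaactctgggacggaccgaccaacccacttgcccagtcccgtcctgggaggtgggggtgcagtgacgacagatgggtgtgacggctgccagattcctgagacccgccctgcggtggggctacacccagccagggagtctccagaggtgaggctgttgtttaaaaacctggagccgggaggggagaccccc
ITGB6: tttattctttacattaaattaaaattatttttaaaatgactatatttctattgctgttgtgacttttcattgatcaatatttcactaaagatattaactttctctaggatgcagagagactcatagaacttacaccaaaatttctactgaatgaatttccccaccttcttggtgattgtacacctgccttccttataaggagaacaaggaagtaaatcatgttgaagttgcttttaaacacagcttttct
LAMC1: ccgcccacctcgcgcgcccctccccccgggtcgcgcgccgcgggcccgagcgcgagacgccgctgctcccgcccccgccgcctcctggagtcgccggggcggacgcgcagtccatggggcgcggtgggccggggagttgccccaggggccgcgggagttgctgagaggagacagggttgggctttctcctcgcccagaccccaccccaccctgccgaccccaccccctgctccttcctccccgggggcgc

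RefSeq windows matched 26 of the 38 members, with 33 starts in all. TGANTCA, searched on both strands, was present in 2 of the 33 windows, the LAMA3 window and the first LAMB3 window, against 6.57% of 35116 windows of the same length over all genes. LAMA3 held 2 copies. The GC box GGGCGG was present in 17 member windows against 42.6% of all windows, with 3 copies before LAMC1. The TATA box letters TATAAA were present in 2 member windows against 10.7% of all. The E-box CACCTG was present in 8 against 17.5%, the TEAD letters GGAATG in 4 against 11.9%, and the E-box CACGTG in 1 against 6.34%. GC content over the member windows ran from 30.0% before ITGB6 to 82.8% before LAMA5, and was 79.6% before LAMC1. These are matches of letters, and no factor's binding was measured.

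The laminin alpha chains carry the cell-binding end of the trimer, and LAMA1 among them had the widest contrast of all tested members. All 5 alpha chains passed the test, 3 higher in A549 and 2 higher in H23. LAMA1, a chain of embryonic basement membranes, stood at 62.4, 108.3 and 107.7 CPM in the H23 libraries and at 0.0831, 0.0799 and 0.129 CPM in A549. The A549 values are close to what 3 counts are worth. Its log2 fold was -9.84 ± 0.39 (SE; edgeR adjusted p = 1.54e-06). LAMA2, the chain of muscle and nerve basement membranes, was at 11.8, 12.3 and 12.9 CPM across H23 and 0.54, 0.28 and 0.388 CPM across A549, with a log2 fold of -4.93 ± 0.21 (edgeR adjusted p = 2.02e-06).

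In the opposite direction, LAMA3, whose products include the alpha chain of laminin-332, was at 3.88, 5.28 and 5.81 CPM across H23. It was at 85.0, 88.3 and 86.4 CPM across A549. The groups were far apart, with a log2 fold of 4.11 ± 0.16 (edgeR adjusted p = 1.6e-06). This is the sum over LAMA3 transcripts, so the level of the form found in laminin-332 is not given by it. The long NM_198129 had 300 counts in H23 and 5988 in A549, and the short NM_000227 had 223 and 9. LAMA5, the alpha chain of laminin-511, was at 78.9, 108.4 and 104.0 CPM across H23 and 325.3, 328.5 and 369.7 CPM across A549 (log2 fold 1.81 ± 0.14, edgeR adjusted p = 2.63e-05). LAMA4, known from blood vessel and fat basement membranes, was below 2 CPM in every library and its log2 fold was 1.22 ± 0.21 (edgeR adjusted p = 0.00135). On log2(TPM + 1) its limma adjusted p was 0.0934.

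Expressed per length, the make-up of the alpha chains was different in the lines. LAMA1 made up 46.9% ± 3.9 (SD, n = 3) of all laminin alpha TPM in H23 and LAMA5 42.2% ± 2.61. In A549 LAMA5 made up 74.3% ± 2.41 and LAMA3 24.6% ± 2.01, while LAMA1 made up 0.0302% ± 0.0105. LAMA1 and LAMA5 in H23 were within 0.939 to 1.23 of each other in TPM, so their order was not the same in every library. The ratio of LAMA3 to LAMA5 in TPM was 0.0896 ± 0.00857 in H23 and 0.333 ± 0.0371 in A549.

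Of the beta chains, LAMB1 and LAMB3 were higher in A549 and LAMB2 did not pass. LAMB3, the beta chain of laminin-332, was at 0.581, 0.769 and 0.541 CPM across H23 and at 29.2, 31.1 and 34.9 CPM across A549 (log2 fold 5.66 ± 0.17, edgeR adjusted p = 5.61e-07). LAMB1, the beta chain of laminin-511, was steady within each line, at 194.8, 191.6 and 194.1 CPM across H23 and 427.5, 427.5 and 426.2 CPM across A549 (log2 fold 1.14 ± 0.07, edgeR adjusted p = 6.96e-06). LAMB2, the beta chain of synaptic and kidney basement membranes, was at 61.1, 132.4 and 128.3 CPM across H23 and 119.4, 122.7 and 130.6 CPM across A549. The lines overlapped, with a log2 fold of 0.21 ± 0.28 (edgeR adjusted p = 0.502) and of -0.07 without H23 replicate 1. LAMB4, which is next to LAMB1 on chromosome 7, was not tested. It had 0 counts in H23 and 21 in A549, at least 10.7-fold higher in A549 against a floor of 3 counts over the group.

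Per length, LAMB1 led in both lines, at 64.8% ± 9.48 of laminin beta TPM in H23 and 71.4% ± 1.22 in A549. LAMB2 followed at 34.9% ± 9.5 and 20.9% ± 0.64. LAMB3 made up 0.306% ± 0.0481 in H23 and 7.59% ± 0.589 in A549.

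LAMC1, the common gamma chain, was at 173.3, 202.0 and 207.4 CPM across H23 and 402.8, 426.6 and 424.0 CPM across A549 (log2 fold 1.11 ± 0.09, edgeR adjusted p = 4.09e-05). The lines did not overlap. LAMC3, a gamma chain known from brain and skin, went the other way, at 21.0, 35.0 and 31.3 CPM across H23 and 5.11, 5.31 and 5.39 CPM across A549 (log2 fold -2.46 ± 0.21, edgeR adjusted p = 3.93e-05).

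**Figure D2:**
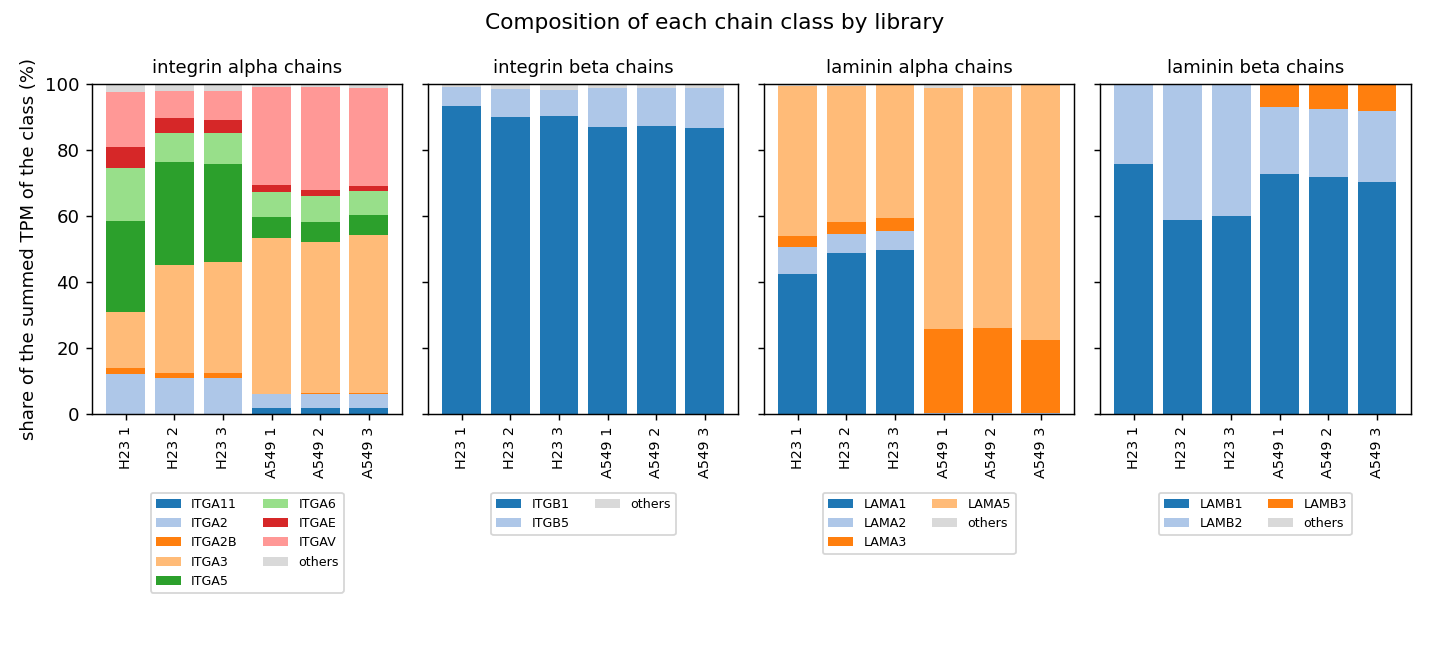
Share of each chain in the summed TPM of its class, in percent, for integrin alpha, integrin beta, laminin alpha and laminin beta chains in the 6 libraries. Bars are single libraries. LAMA1 fills 42.4 to 49.5% of the laminin alpha bar in H23 and is not visible in A549, where LAMA5 fills 72.9 to 77.1%.

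Among the laminin-binding integrin chains, ITGA3, ITGA6 and ITGB4 were higher in A549 and ITGA7 was higher in H23. ITGA3, which pairs with beta1 to bind laminin-332 and laminin-511, was at 98.2, 225.2 and 242.0 CPM across H23 and 738.3, 762.6 and 826.8 CPM across A549. H23 replicate 1 was the lowest library, and the log2 fold was 2.04 ± 0.32 with it (edgeR adjusted p = 9.46e-04) and 1.73 without it. ITGA6, which pairs with beta1 or beta4, was highest within H23 in replicate 1, at 104.1 CPM against 69.7 and 76.6, and was at 139.1, 152.7 and 141.9 CPM in A549. Its log2 fold of 0.79 ± 0.16 (edgeR adjusted p = 0.00281) was -0.02 (adjusted p = 0.817) once the trend with gene length and GC content was removed.

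ITGB4, the beta chain of hemidesmosomes, was at 6.95, 12.1 and 14.8 CPM across H23 and 40.0, 40.4 and 41.3 CPM across A549 (log2 fold 1.85 ± 0.26, edgeR adjusted p = 5.13e-04). ITGA7, the laminin receptor chain of muscle, was at 3.8, 4.88 and 4.21 CPM across H23 and 1.29, 1.24 and 1.6 CPM across A549 (log2 fold -1.64 ± 0.18, edgeR adjusted p = 1.58e-04). ITGB1, the beta chain shared by most of these receptors, was at 771.0, 732.5 and 785.4 CPM across H23 and 2731, 2813 and 2717 CPM across A549 (log2 fold 1.85 ± 0.07, edgeR adjusted p = 1.33e-06). ITGB1 was the leading beta chain in both lines, at 91.2% ± 1.77 of integrin beta TPM in H23 and 87.0% ± 0.289 in A549.

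The collagen-binding alpha chains differed one from another. ITGA11, a fibrillar collagen receptor chain best known from fibroblasts, had 4 counts over the H23 libraries and 1957 over the A549 libraries. Its levels were 25.8, 26.2 and 29.3 CPM in A549 and 0.1 CPM at most in H23, with a fitted log2 fold of 9.38 ± 0.38 (edgeR adjusted p = 1.7e-06). Without H23 replicate 2, which held most of those 4 counts, the log2 fold was 10.68, and without H23 replicate 1 it was 8.82. The 6 fibroblast markers summed to 20.4 to 29.5 CPM in H23 and 10.0 to 11.6 CPM in A549, most of it COL1A1 (means of 22.4 and 8.23 CPM), and PDGFRA was at 1.37 and 1.7 CPM. Their part in the ITGA11 result was not tested. ITGA1 was at 2.01, 1.34 and 1.55 CPM across H23 and 4.86, 5.39 and 5.52 CPM across A549 (log2 fold 1.68 ± 0.19, edgeR adjusted p = 1.61e-04).

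ITGA2, the best known collagen receptor chain of epithelia, was at 111.5, 117.0 and 121.7 CPM across H23 and 104.5, 116.9 and 118.3 CPM across A549. The lines overlapped, with a log2 fold of -0.04 ± 0.09 (edgeR adjusted p = 0.653). On log2(TPM + 1) the difference was -0.57 (limma adjusted p = 0.00253). On counts it was -0.59 with the length trend removed (edgeR adjusted p = 0.00194) and -0.82 with length and GC trends removed (edgeR adjusted p = 7.08e-04). With TPM rescaled to mRNA genes it was 0.09 (limma adjusted p = 0.422). ITGA1 and ITGA2 lie with 1 coding gene between them on chromosome 5. ITGA10 was at 0.555 to 1.25 CPM across H23 and 1.36 to 1.6 CPM across A549, without overlap and with an adjusted p of 0.054 in edgeR's test. It passed, higher in A549, without H23 replicate 3 (log2 fold 1.27, edgeR adjusted p = 0.00424) and with the replicate block (edgeR adjusted p = 0.0395). It also passed with length and GC trends removed (edgeR adjusted p = 0.0146) and on TPM rescaled to mRNA genes (limma adjusted p = 0.0273). Under every other alternative it missed the threshold. The difference was 0.05 on log2(TPM + 1) (limma adjusted p = 0.565) and 0.54 with the length trend removed (edgeR adjusted p = 0.178).

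Of the chains that bind the RGD motif of fibronectin, vitronectin and latent TGF-beta, ITGAV, ITGB5, ITGB6 and ITGB8 were higher in A549 and ITGA5 and ITGA2B were higher in H23. ITGAV, the alpha chain shared by several beta partners, was at 133.3, 79.6 and 88.0 CPM across H23 and 653.7, 733.5 and 726.1 CPM across A549. The log2 fold was 2.81 ± 0.21 (edgeR adjusted p = 2.14e-05). ITGB5, its vitronectin receptor partner, was at 52.1, 73.3 and 74.1 CPM across H23 and 401.5, 399.4 and 407.2 CPM across A549 (log2 fold 2.6 ± 0.15, edgeR adjusted p = 7.08e-06).

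ITGB6, the epithelial partner that activates latent TGF-beta, had 5 counts in the H23 libraries together and 877 in A549. Its level was 10.6, 12.6 and 13.2 CPM in A549 and 0.0706 CPM at most in H23, with a fitted log2 fold of 7.94 ± 0.27 (edgeR adjusted p = 8.68e-07). ITGB8, another activator of latent TGF-beta, was at 1.59, 0.936 and 0.706 CPM across H23 and 3.74, 3.91 and 3.28 CPM across A549 (log2 fold 1.76 ± 0.30, edgeR adjusted p = 0.00142).

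ITGA5, the alpha chain of the classical fibronectin receptor, was at 134.1, 181.4 and 178.5 CPM across H23 and 80.5, 84.2 and 89.5 CPM across A549 (log2 fold -0.96 ± 0.13, edgeR adjusted p = 4.81e-04). ITGAV was 0.39 ± 0.192 of ITGA5 in TPM in H23 and 4.94 ± 0.206 in A549. ITGA2B, known as the platelet fibrinogen receptor chain, was at 7.16, 7.69 and 7.72 CPM across H23 and 2.16, 2.16 and 2.46 CPM across A549 (log2 fold -1.73 ± 0.13, edgeR adjusted p = 2.12e-05).

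ITGB3, the beta partner of ITGA2B and ITGAV, was at 2.51, 6.25 and 6.47 CPM across H23 and 3.82, 4.55 and 3.92 CPM across A549, so A549 lay inside the range of H23. Its log2 fold of -0.31 ± 0.35 had an adjusted p of 0.449 in edgeR's test. Without H23 replicate 1 the fold was -0.64 and the adjusted p 7.34e-05. ITGA8 was not tested. It had 52 counts in the H23 libraries and none (0) in those of A549, which is at least 11.4-fold higher in H23 against a floor of 3 counts over the group.

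Over all alpha chains, per length, ITGA5 (29.5% ± 1.89 of alpha TPM) and ITGA3 (27.8% ± 9.41) led in H23 and could not be ranked beyond their spread. ITGA6, ITGAV and ITGA2 followed at 11.3% ± 3.98, 11.3% ± 4.82 and 11.2% ± 0.82, also within their spread. In A549 ITGA3 led at 47.0% ± 1.1, then ITGAV at 30.3% ± 0.869, ITGA6 at 7.6% ± 0.427 and ITGA5 at 6.13% ± 0.0801.

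Apart from ITGAE, the leukocyte-type chains and the alpha4 and alpha9 chains were low in both lines. ITGA4, a VCAM1 and fibronectin receptor chain, was at 1.16, 0.635 and 0.871 CPM across H23 and 4.11, 4.27 and 4.53 CPM across A549 (log2 fold 2.26 ± 0.23, edgeR adjusted p = 1.04e-04). Its beta partner ITGB7 was at 0.434 to 0.608 CPM across H23 and 0.79 to 1.2 CPM across A549, a log2 fold of 0.98 ± 0.26 (edgeR adjusted p = 0.0113) that had a limma adjusted p of 0.111 on log2(TPM + 1). ITGA9, a tenascin receptor chain, had 81 counts in H23 and 3 in A549, a ratio of H23 to A549 of 17.7 after scaling for depth with a 95% counting interval of 5.85 to 87.6, and was called higher in H23 (edgeR adjusted p = 4.1e-04).

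ITGAX, a complement receptor chain, had 2 counts in H23 and 33 in A549, a ratio of A549 to H23 of 25.2 with an interval of 6.44 to 216.5 (edgeR adjusted p = 3.71e-04). ITGAE, the E-cadherin receptor chain of intraepithelial T cells, was the most abundant chain of these at 28.4, 24.1 and 21.5 CPM across H23 and 22.5, 22.2 and 20.7 CPM across A549. It missed the threshold, at a log2 fold of -0.18 ± 0.12 (edgeR adjusted p = 0.221). ITGAM missed it too, at a log2 fold of -0.02 ± 0.17 (edgeR adjusted p = 0.932). ITGAL (2 counts in H23, 37 in A549), ITGB2 (33 and 20 counts) and ITGAD (1 and 0 counts) were not tested. The ITGAD, ITGAX and ITGAM genes are neighbours on chromosome 16. The leukocyte marker PTPRC was at 0 CPM in H23 and at a mean of 0.0139 CPM in A549.

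**Figure D3:**
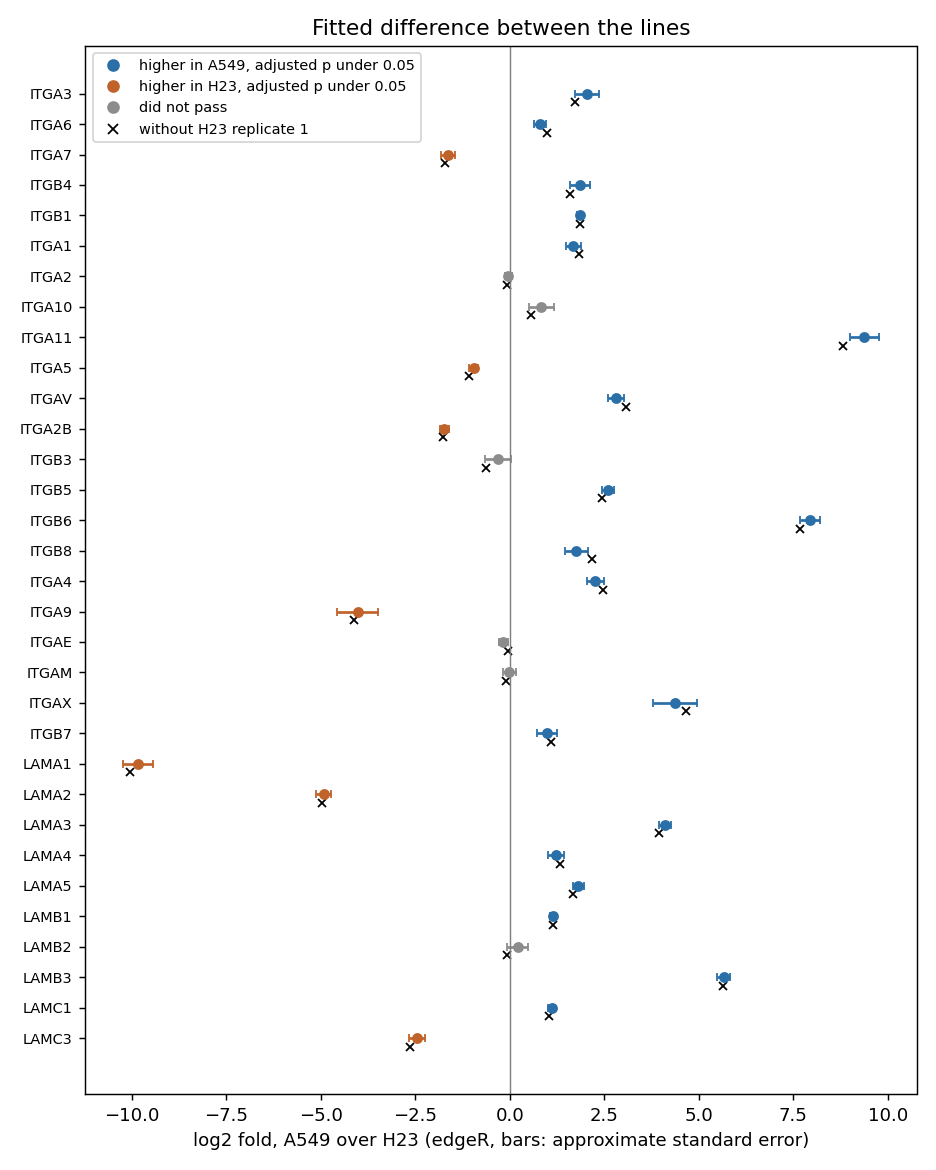
Log2 fold, A549 over H23, of tested integrin and laminin genes with its approximate standard error, ordered by role. Blue and orange points had an adjusted p under 0.05 by edgeR, grey points did not, and crosses are folds without H23 replicate 1. LAMA1 is farthest left at -9.84 and ITGA11 farthest right at 9.38.

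Summed over a class, the integrin alpha, integrin beta, laminin alpha and laminin beta chains each held more TPM in A549 than in H23 in every library. Integrin alpha chains summed to 213.3 ± 33.5 TPM in H23 and 361.4 ± 29 in A549, and integrin beta chains to 358.7 ± 24.7 and 919.2 ± 25.5. Laminin alpha chains summed to 32.4 ± 8.38 and 43.4 ± 3.31 TPM and beta chains to 83.6 ± 14.8 and 112.2 ± 5.72 (SD, n = 3 each). Each sum had a two-sided exact permutation p of 0.1, the smallest that 3 libraries against 3 allow. Integrin beta TPM was 1.7 ± 0.182 times integrin alpha TPM in H23 and 2.55 ± 0.132 times in A549. Rescaled to genes of protein-coding transcripts, a setting chosen after the data were seen, the log2 ratios of the sums rose from 0.77 to 1.47 for integrin alpha, from 1.36 to 2.06 for integrin beta and from 0.45 to 1.15 for laminin alpha chains.

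**Figure D4:**
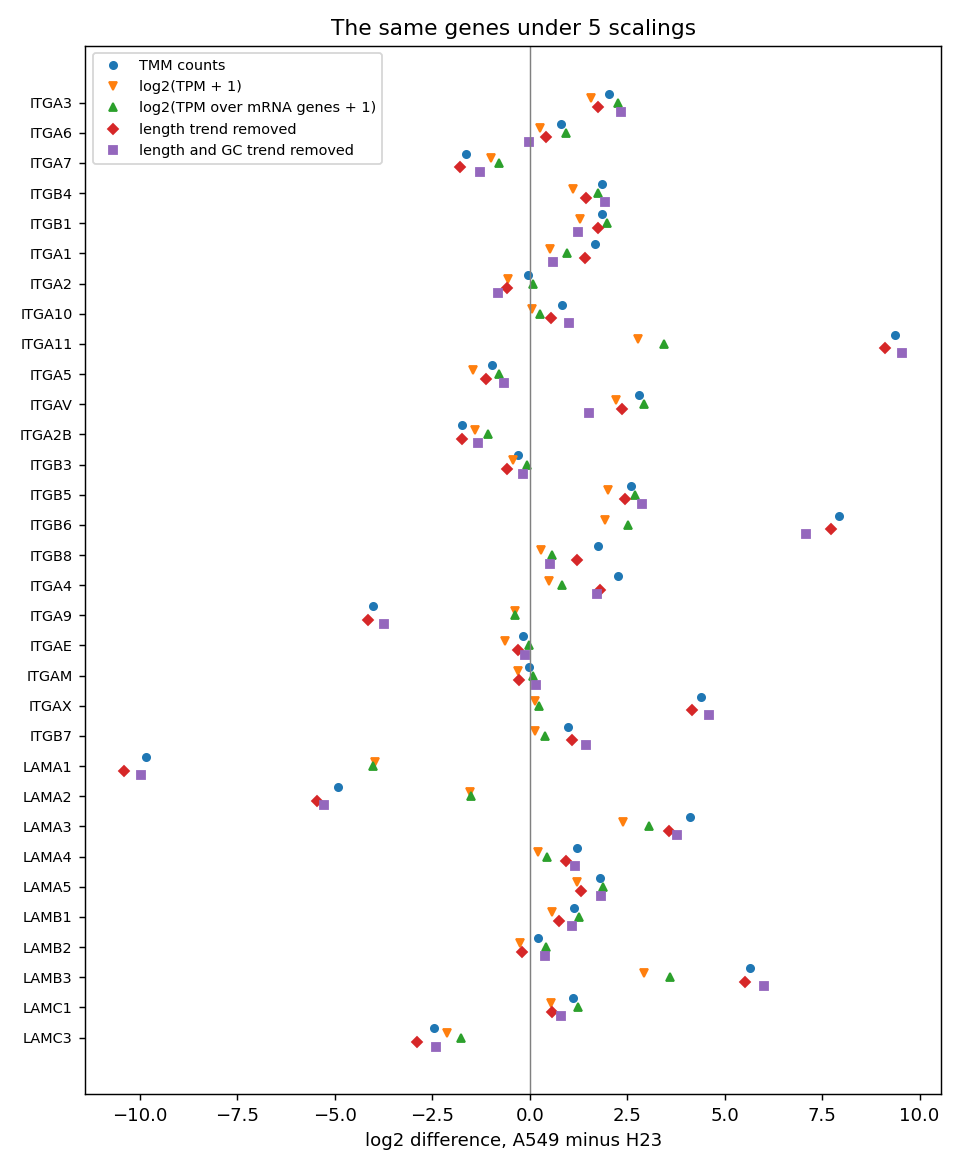
Log2 fold of tested members on the x axis under 5 treatments of the same libraries: TMM counts, log2(TPM + 1), log2(TPM + 1) rescaled to genes of protein-coding (mRNA) transcripts, and counts with the length trend or the length and GC trends removed. LAMA1, LAMB3, ITGA11 and ITGB6 keep their side of 0 in all, and ITGA6 reaches -0.02 in one.

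Transcript forms also differed. Usage, meaning how a gene's counts are divided over its transcripts, was compared by diffSpliceDGE, the gene-level usage test of edgeR. Of 11 members with at least 2 testable transcripts, 5 passed an adjusted p of 0.05, which is 45.5% against 25.8% of the 7539 genes tested. LAMA3 is transcribed from 2 starts, and in GENCODE the short form begins 183 kb downstream of the long one. The short transcript NM_000227, of 5617 bases, held 55.0, 40.4 and 49.6% of LAMA3 transcripts in H23 and 0.69, 0 and 0% in A549. The long transcript NM_198129, of 10660 bases, held 36.3, 28.6 and 35.6% in H23 and 75.6, 77.4 and 83.8% in A549. The adjusted p of the usage test in edgeR was 0.00108, and LAMA3 passed under all 10 alternatives. In counts over the 3 libraries, the long form had 300 in H23 and 5988 in A549, and the short form had 223 and 9. These 2 transcripts thus moved in opposite directions. The window printed for LAMA3 is at the short-form start, not the long one. Of other LAMA3 transcripts, NR_130106, of 1975 bases, had 28 counts in H23 and 176 in A549. NM_001302996, of 1749 bases, had 0 and 86 and did not enter the usage test.

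LAMB3 was divided over 3 transcripts that begin at separate starts. NM_000228 held 63.1, 68.2 and 71.2% in A549 and 0% in each H23 library, and NM_001017402 held 36.9, 31.9 and 28.8% in A549. In H23 NM_001127641 held 100, 35.4 and 100%, on 68 LAMB3 counts in all. NM_001127641 did not enter the usage test, which compared the other transcripts on 15 counts in H23. It gave an adjusted p of 0.0459 in edgeR and passed under 8 of 10 alternatives, with a highest adjusted p of 0.21.

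ITGB5 had the smallest usage p among the members (edgeR adjusted p = 3.25e-06, passed under all 10 alternatives). NM_001354765 held 84.1, 83.3 and 81.1% in H23 and 65.8, 60.6 and 61.8% in A549, and NM_002213 rose from 13.1, 14.3 and 15.6% to 28.4, 32.5 and 34.2%. The lines did not overlap for either transcript.

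ITGB1 was led by NM_133376 in H23, at 74.0, 62.6 and 55.8%, and by NM_002211 in A549, at 63.7, 63.0 and 61.9%. The usage adjusted p was 0.0109 in edgeR and passed under 6 of 10 alternatives. ITGA10 was read as NM_001303041 alone in H23, at 100% in each library, while NM_003637 held 63.4, 45.5 and 85.7% in A549 and 0% in H23 (edgeR adjusted p = 0.00968). The call held under 9 of 10 alternatives and had an adjusted p of 0.0561 with the replicate number as a block. NM_001303041 had 94 counts in H23 and 12 in A549, and NM_003637 had 0 and 72. A further form, NM_001303040, held 0, 54.6 and 14.3% in A549, so it led in A549 replicate 2. It did not enter the usage test. ITGA6, ITGA7, ITGB4, ITGAV and ITGAM did not pass, but without H23 replicate 1 the usage adjusted p of ITGA6 was 0.0198 in edgeR, against 0.22 with it. In ITGAV, H23 replicate 1 was divided unlike the other H23 libraries: NM_002210 held 0% there against 81.1 and 77.4%.

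**Figure D5:**
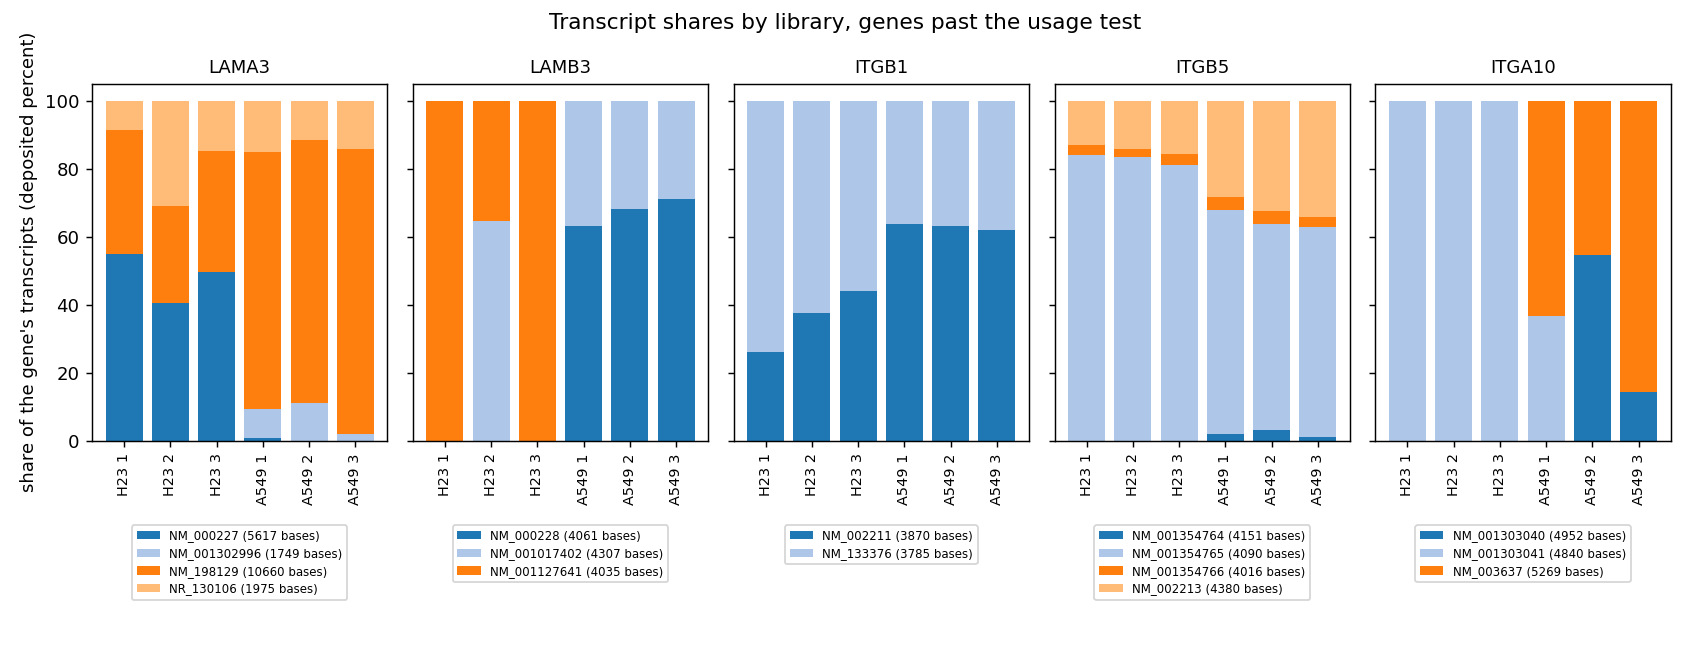
Share of each gene's transcripts, in percent, in the 6 libraries for the members past the usage test. Bars are libraries and colours are transcripts. The short LAMA3 transcript holds 40.4 to 55.0% in H23 and at most 0.69% in A549.

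Around the members, 4 lists of partner genes were compared. Of 28 basement membrane and laminin-binding genes, 26 were tested, 18 higher in A549, 5 higher in H23 and 3 not passing, with a median log2 fold of 1.54. Over all tested genes 37.6% were higher in A549, 39.6% were higher in H23 and the median was -0.03. The called share was 88.5%, against 77.2% of all tested genes. Netrin-4 (NTN4), which binds laminin gamma chains, rose from 0.332 ± 0.0684 to 165.0 ± 3.6 CPM, a log2 fold of 8.96 ± 0.15 (edgeR adjusted p = 9.38e-08). COL7A1, the anchoring fibril collagen that attaches to laminin-332, was at 6.67 ± 0.34 CPM across H23 and 577.9 ± 76.9 CPM across A549 (log2 fold 6.44 ± 0.14). SPARC, a collagen-binding matrix protein, had a log2 fold of 6.63 ± 0.19. Higher in H23 were SDC4, a heparan sulfate co-receptor (log2 fold -1.8 ± 0.10), and the laminin receptor DAG1 (-1.0 ± 0.20).

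Of 15 hemidesmosome and tetraspanin partners, 14 were tested, 8 higher in A549, 5 higher in H23 and 1 not passing, with a median log2 fold of 0.64. The called share was 92.9%, against 77.2% of all tested genes. DST, whose products include the plakin of hemidesmosomes, rose from 36.6 ± 14.9 to 166.5 ± 4.69 CPM (log2 fold 2.19 ± 0.27, edgeR adjusted p = 2.79e-04). This covers all DST transcripts together, with a mean length of 15810 bases, so the level of the hemidesmosome form is not given. SLC3A2, a partner of beta1 chains, had a log2 fold of 2.84 ± 0.08 and caveolin CAV1 of 1.78 ± 0.09. The beta1-binding membrane protein BSG (-2.19 ± 0.08) and the tetraspanins CD82 (-1.66 ± 0.22) and CD9 (-1.5 ± 0.12) were higher in H23.

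Of 34 other integrin ligands, 25 were tested, 8 higher in A549, 13 higher in H23 and 4 not passing, with a median log2 fold of -0.64. The called share was 84.0%, near the 77.2% of all tested genes. Osteopontin (SPP1), a ligand of alpha-v integrins, was at 0.603 ± 0.102 CPM across H23 and 182.6 ± 1.73 CPM across A549 (log2 fold 8.23 ± 0.14, edgeR adjusted p = 1.11e-07). Fibronectin (FN1) was at 22.9 ± 5.26 and 167.1 ± 6.83 CPM, a log2 fold of 2.87 ± 0.18. Of the RGD-binding integrin chains, 4 were higher in A549, as FN1 was, and 2, ITGA5 among them, were higher in H23. TGFBI, a secreted integrin ligand, had a log2 fold of 8.35 ± 0.13. Higher in H23 were ICAM1, the ligand of the leukocyte chains ITGAL and ITGAM, at 290.0 ± 6.59 against 3.49 ± 0.56 CPM (log2 fold -6.38 ± 0.14, edgeR adjusted p = 2.13e-07), ICAM5 (-4.62 ± 0.19) and NOV (-4.81 ± 0.40).

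Of 48 integrin activation and focal adhesion genes, 47 were tested, 24 higher in A549, 12 higher in H23 and 11 not passing, with a median log2 fold of 0.45. The called share was 76.6%, near the 77.2% of all tested genes. On log2(TPM + 1) the counts were 15 and 19, so the direction of this list depended on the scaling. The calls of all genes moved too, with 48.7% of them higher in A549 on counts and 31.7% on log2(TPM + 1). NEDD9, a scaffold of focal adhesion kinase signalling, rose from 0.756 ± 0.135 to 113.8 ± 3.47 CPM (log2 fold 7.21 ± 0.14, edgeR adjusted p = 1.72e-07). The tensin TNS3 (3.76 ± 0.18) was also higher in A549. The adhesion adaptors ZYX (-2.76 ± 0.15) and PXN (-2.45 ± 0.09) and the talin-recruiting GTPase RAP1A (-2.17 ± 0.15) were higher in H23.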

How the data were processed

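Total RNA of 3 H23 and 3 A549 cultures was sequenced, with groups taken from the labels. The submitters' processing notes name STAR 2.6.0c, RSEM 1.3.0 and the build hg19. Options, annotation release and strand setting are not given in the sources used here, so reads of overlapping antisense genes cannot be told apart. Per the file headers, the deposited expected counts are RSEM estimates, 1 for each gene or transcript. TPM, also deposited, is scaled for length and depth. The deposited FPKM values were not used. The deposited percent values give a transcript's share of its gene.

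Rounded expected counts went into edgeR 4.0.16 (R 4.3.3), with filterByExpr, TMM and the robust quasi-likelihood F test, with Benjamini-Hochberg adjustment over 15426 genes and a threshold of 0.05. Standard errors are approximate, computed as the size of the log2 fold divided by the root of F. Usage was tested with diffSpliceDGE on 24779 transcripts. Limma 3.58.1 served for log2(TPM + pseudocount) values and DESeq2 1.42.0 as an alternative test. Intervals and floors cover counting error only, and the division of reads between close paralogs or transcripts by RSEM adds an error the tests leave out. The scripts were tested on simulated data with known changes.

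Members follow from a rule on symbols, but that rule and the lists were chosen with earlier results of these data known. All members may be named. Counts cover all members and list genes, and a few genes' own values are not reported here. Of each pathway list, up to 3 tested genes per direction are named, those with the largest log2 fold past the test, without overlap of libraries and with 5 or more mean TPM in the higher line. ITGAV and ITGB6 transcripts, NM_001303040 of ITGA10, and NR_130106 and NM_001302996 of LAMA3 were named after their values were seen. For each member past the usage test, the leading transcript in each line is named. The files hold no coordinates, and windows and gene order come from RefSeq on GRCh38.p14, which gave 26 members a start window. Alternatives were size factors, upper quartile factors, DESeq2, no filter, TPM scalings, removal of length and GC trends, a replicate block and each library left out.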

Additional observations from a re-analysis of the deposited data

How the results depend on the processing

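Of 528 results, one per tested member and alternative, 497 kept their direction and side of the threshold, 6 fell below it, 13 passed it and 12 changed sign. The only called gene among the 12 was ITGA6, at -0.02 with length and GC trends removed. The others had not passed: ITGA2 was 0.09 on TPM over mRNA genes and -0.08 to 0.03 with a library left out, above 0 without A549 replicate 1. ITGAM was 0.08 on TPM over mRNA genes, 0.17 with length and GC trends removed, and -0.12 to 0.09 with a library left out, above 0 without H23 replicate 3, A549 replicate 1 or A549 replicate 2. LAMB2 was -0.25 and -0.26 on the TPM scales, -0.19 with the length trend removed and -0.07 to 0.39 with a library left out, below 0 without H23 replicate 1. For 24 of 33 members all 16 alternatives gave the same direction and call. ITGB7 and LAMA4 did not pass on either TPM scale, nor did ITGA6. ITGA2, ITGAE and ITGAM were lower in A549 on both. ITGA2 also passed, lower in A549, on counts with the length trend or the length and GC trends removed. The count of members higher in A549 was 20, and 20 to 22 with a library left out. The count higher in H23 was 7, and 7 to 9 with a library left out. Focal adhesion genes gave 15 higher in A549 and 19 higher in H23 on both TPM scales, and the basement membrane list gave 8 higher in H23 on log2(TPM + 0.1). Summed over protein-coding genes, the log2 ratios were 1.47 and 2.06 for integrin alpha and beta chains and 1.15 and 1.14 for laminin alpha and beta chains. Usage changed in 5 members, in 5 to 7 with a library left out, and in 3 with the Simes test. The cause of these shifts was not tested.

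Replicate numbers are shared between the lines but mark no common origin, and deviations of same-numbered libraries correlated at 0.025, -0.039 and 0.054. With the replicate number as a block, 21 members were called for A549 and 7 for H23, 93 pathway genes differed and 3 members changed usage.

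Low counts kept ITGAD, ITGAL, ITGB2, ITGA8 and LAMB4 out of the test. With no filter, edgeR adjusted p was 0.00199 for ITGA8, lower in A549, 0.000845 for ITGAL and 0.00141 for LAMB4, both higher, 0.847 for ITGB2 and 0.452 for ITGAD.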
